A study of Homo sapiens with 4 samples.

Results

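The 10 genes described are CIITA, CD74, HLA-DRA, HLA-DRB1, HLA-DMA, HLA-DMB, HLA-DPA1, RFX5, RFXAP and RFXANK, which encode the MHC class II transactivator, its DNA-bound partners and proteins of the class II pathway. They were chosen by symbol, and all 10 were found by Ensembl gene identifier among the 37515 genes of the count table. RNA was sequenced from wild-type Caco-2 cells, a human colorectal carcinoma line used as a model of intestinal epithelium. The cells had been cultured for 15 days in transwells, which hold a cell layer on a porous support between an apical and a basal compartment. The 2 unstimulated libraries were taken at 0 h, and the 2 IFNγ libraries after 3 h with 60 ng/ml IFNγ in the basal compartment. IFNγ and the 3 h that passed therefore cannot be told apart. The labels do not say whether libraries of a group came from separate cultures, so p-values measure only the spread between these libraries.

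MHC class II molecules are pairs of an alpha and a beta chain that display peptides from the endosomal pathway to CD4+ T cells. Professional antigen-presenting cells make them constitutively, whereas epithelial cells, those of the inflamed gut included, are known to make them after IFNγ. IFNγ signals through its receptor and the JAK kinases, and IRF1 and USF1 are among the factors that switch on one of the CIITA promoters. CIITA does not bind DNA itself: it is recruited to class II promoters by the RFX complex (RFX5, RFXAP and RFXANK), CREB1 and NF-Y, which sit on conserved elements called the X and Y boxes.

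The sequences of these elements are shown because they are what the RFX complex, CREB1 and NF-Y bind, and so join the regulators to their targets. RefSeq promoter windows on GRCh38.p14, each starting 250 bases before a gene start, were found for 8 of the 10 genes, and none for CIITA and HLA-DRA. The letters AG, any 2 bases, AC, any 5 bases and ATG, in that order, were searched on both strands as X box letters, and ATTGG, or CCAAT on the other strand, as Y box letters. The X box letters were written after these promoters had been read, so finding them there is no result. They were present in windows of 5 members, and in 2.0% of all 35116 windows. The windows of the class II genes HLA-DRB5, HLA-DPB1, HLA-DQA1, HLA-DQB1, HLA-DQA2, HLA-DQB2, HLA-DOA and HLA-DOB held Y box letters but no X box letters. The X box letters used here thus do not cover class II promoters in general. Y box letters were in 32.0% of all windows. In the stretches below, read on the strand of the gene, the capitals mark the X box letters and, where present, the Y box letters that follow within 40 bases.
CD74 (chr5:150412955-150412995, minus strand): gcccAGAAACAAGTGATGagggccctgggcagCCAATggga
HLA-DRB1 (chr6:32589886-32589931, minus strand): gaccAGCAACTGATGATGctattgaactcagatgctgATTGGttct
HLA-DMA (chr6:32953168-32953214, minus strand): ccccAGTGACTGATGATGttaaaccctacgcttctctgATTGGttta
HLA-DMB (chr6:32941063-32941120, minus strand): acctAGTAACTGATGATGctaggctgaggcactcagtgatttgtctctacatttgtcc
HLA-DPA1 (chr6:33073695-33073752, minus strand): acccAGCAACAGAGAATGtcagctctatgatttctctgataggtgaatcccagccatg
The X box letters began at position -81 from the gene start in CD74, -79 in HLA-DRB1, -113 in HLA-DMA, -88 in HLA-DMB and -99 in HLA-DPA1. X box letters on the strand of the gene, followed by Y box letters within 40 bases, were searched as a pair. The pair was found for 3 members, CD74, HLA-DRB1 and HLA-DMA, and in 0.051% of all windows. Because the X box letters were written after these promoters had been read, this is no result either. The windows of RFX5, RFXAP and RFXANK held no X box letters, which says only that these letters are not there.

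At 3 h, none of the 10 genes met the criteria for a called change, an adjusted p-value under 0.05 in edgeR's quasi-likelihood test and an absolute log2 fold change above 1. In all, 5 genes had too few counts to be tested: CIITA, HLA-DRA, HLA-DRB1, HLA-DMB and HLA-DPA1, with at most 18 counts in any library. Of the other 5 genes, 0 were called higher and 0 lower, against 2.88% and 4.40% of the 14820 genes tested, or 7.28% in either direction. Unadjusted p-values under 0.05 were given by edgeR for 2 of the 5, RFX5 and RFXANK, and by DESeq2 for 1, and DESeq2 called 0. Over all tested genes, edgeR gave such a p to 16.6% as higher and 18.8% as lower. With the adjusted p-value alone, RFX5 was lower after IFNγ, as were 11.0% of all tested genes, and none of the 5 was higher, against 9.02%. The median log2 fold change of the 5 tested genes was 0.25, with a range from -0.60 to 0.42, beside a median of -0.01 over all tested genes. CD74 and RFXANK had both IFNγ libraries above both unstimulated libraries, as did 31.6% of all tested genes. RFX5 and RFXAP had both below, as did 30.8%.

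**Figure D1:**
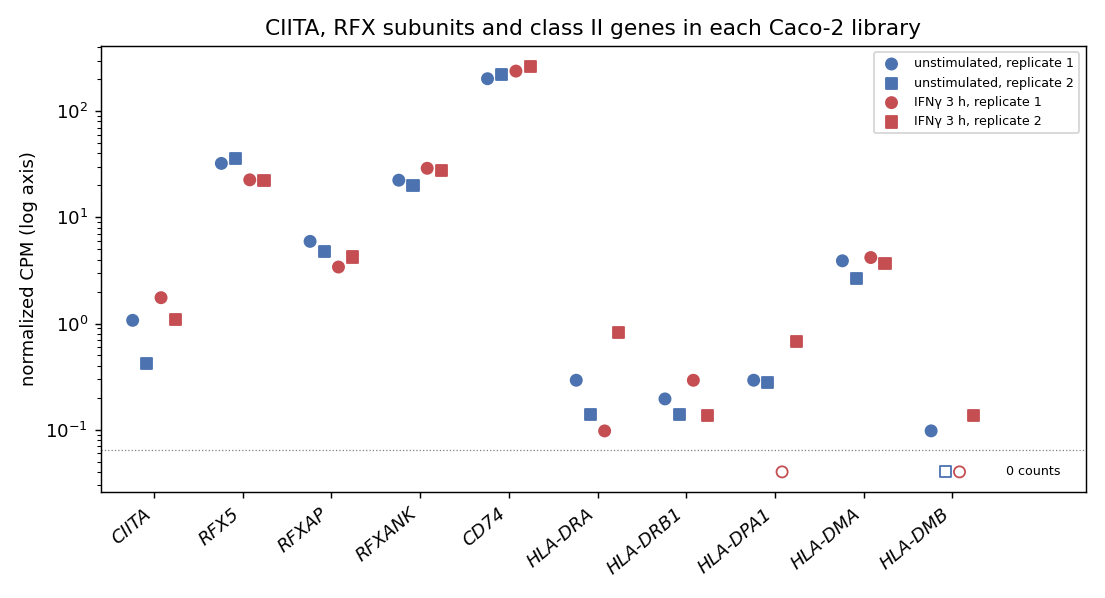
Level of each of the 10 genes in each library, in CPM (counts scaled to a common library size) on a log axis, with circles for replicate 1, squares for replicate 2 and open symbols for 0 counts. CD74 lies above 200 CPM in every library, the RFX genes between 3.4 and 35.7 CPM, and HLA-DRA, HLA-DRB1, HLA-DMB and HLA-DPA1 below 1 CPM.

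The libraries held 7171455 to 10365346 counts, replicate 1 being the deeper in each group, so that 1 CPM, a count scaled by library size, was worth 7.14 to 10.3 counts. Enterocyte genes checked the cell type: all 14 listed were tested, and their summed level was 11220 and 12330 CPM in the unstimulated and 12740 and 13320 CPM in the IFNγ libraries. Of 15 markers of antigen-presenting leukocytes, 14 had a row and 3 were tested, CD14, CSF1R and LYZ. Summed over the whole list, their level was 14.7 and 16.0 CPM in the unstimulated and 19.6 and 22.4 CPM in the IFNγ libraries. SPI1, the transcription factor of myeloid and B cells, and CLEC9A, of dendritic cells, had 0 counts throughout. PTPRC, the pan-leukocyte antigen CD45, had 0 counts in all but the first IFNγ library, which held 2. In bulk RNA, fewer cells of a type and less RNA per cell cannot be told apart.

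CIITA (ENSG00000179583, GRCh37 chromosome 16, 10960079 to 11036878, plus strand) encodes the transactivator on which inducible and constitutive class II transcription depends. Its reads numbered 11 and 3 in the unstimulated libraries and 18 and 8 in the IFNγ libraries. This was 1.07 and 0.42 CPM before and 1.75 and 1.09 CPM after IFNγ. Both IFNγ libraries were above both unstimulated ones, but the lower IFNγ value and the higher unstimulated value nearly coincided. Summed over each group, 14 counts became 26, a ratio of 1.84 with a 95% counting interval of 0.924 to 3.8. That interval includes no change, and it covers counting error only.

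Because CIITA did not pass the filter on low counts, its test came from a fit in which every gene with a count was kept. There the log2 fold change was 0.89, with an unadjusted p of 0.113 and an adjusted p of 0.407 by edgeR's quasi-likelihood test over 29357 genes. In that fit the spread of single genes was replaced by the common trend. CIITA passed the filter in 3 of the 4 fits with a library left out, with log2 fold changes of 1.75 without unstimulated replicate 1, 0.45 without unstimulated replicate 2 and 1.12 without IFNγ replicate 2. By edgeR's quasi-likelihood test, the adjusted p-values in those fits were 0.289 to 0.715. A rise in CIITA was thus not detectable at this depth. Of annotated genes, 3 overlap CIITA: DEXI and ENSG00000262151 on the opposite strand and ENSG00000280153 on the same strand. DEXI had 1 and 0 counts in the unstimulated and 2 and 0 in the IFNγ libraries. How the counting treated reads of these overlaps is not given, so reads of CIITA may be missing.

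The classical class II chains were close to the limit of detection. HLA-DRA (ENSG00000204287, chromosome 6, 32407655 to 32412823, plus strand), the nearly invariant alpha chain of HLA-DR, had 3 and 1 counts unstimulated and 1 and 6 with IFNγ. The groups overlapped, and the ratio of the summed counts, 4 against 7, was 1.73 with a counting interval of 0.44 to 8.06. HLA-DRB1 (ENSG00000196126, chromosome 6, 32545679 to 32557625, minus strand), the polymorphic beta chain, had 2 and 1 counts unstimulated and 3 and 1 with IFNγ. HLA-DPA1 (ENSG00000231389, chromosome 6, 33032346 to 33048552, minus strand), the alpha chain of HLA-DP, had 3 and 2 counts unstimulated and 0 and 5 with IFNγ. Neither showed a difference between groups beyond that within them, and for HLA-DPA1 the sums were 5 and 5, a ratio of 0.989 with an interval of 0.228 to 4.3. Reads of HLA-DRB1 and the near-identical HLA-DRB5 can match both genes, and how the counting treated such reads is not given. The level of either is therefore uncertain, and reads may be missing from both.

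The remaining class II chains were as low. Of 10 others listed, 7 had a row, none passed the filter, and no library held more than 9 counts of any. HLA-DPB1, HLA-DQA1, HLA-DQB1 and HLA-DOA had 0 counts in every library, which allows up to 0.172 CPM in the unstimulated group and 0.17 CPM in the IFNγ group at a floor of 3 counts per group. HLA-DPB1 and HLA-DPA1 overlap on opposite strands. The strand setting of the counting is not known, so the limit for HLA-DPB1 and the counts of HLA-DPA1 may miss reads of the overlap. HLA-DRB5 had 0 and 0 counts before and 1 and 1 after IFNγ, and HLA-DQB2 had a single count in 1 unstimulated library. HLA-DOB, which encodes a chain of the HLA-DM inhibitor HLA-DO, had 4 and 0 counts before and 9 and 0 after IFNγ, so all of its counts came from the replicate 1 libraries. Its ratio of summed counts was 2.22, with an interval of 0.621 to 9.88.

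In the fit that kept every gene with a count, HLA-DRA, HLA-DRB1, HLA-DPA1 and HLA-DMB differed by 0.84, 0.38, 0.06 and 0.03 on the log2 scale. Their adjusted p-values by edgeR's quasi-likelihood test were 0.733 or higher. No change in the class II chains was detectable at this depth, which does not show that there was none.

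CD74 (ENSG00000019582, chromosome 5, 149781200 to 149792532, minus strand) encodes the invariant chain, which occupies the peptide groove of new class II molecules and guides them to endosomes. It was the one abundant member, at the 94.8th percentile of mean level among tested genes. The counts were 2078 and 1579 unstimulated and 2455 and 1945 with IFNγ, or 202 and 221 CPM against 239 and 265 CPM. The groups did not overlap, and the means were 212 ± 13.4 and 252 ± 18.8 CPM (SD, n = 2 each). The log2 fold change of 0.25 ± 0.12 (SE) did not pass the test, with an adjusted p of 0.171 by edgeR's quasi-likelihood test and a 95% interval of -0.02 to 0.53. In linear terms the fitted fold was 1.19, and 71.9% of tested genes had a lower log2 fold change. The genes whose pattern over the 4 libraries lay nearest to CD74 included COX7A2L, PRSS8, ZDHHC4 and UXT, at distances of 0.00863 to 0.0182 on the log2 CPM scale. By edgeR's quasi-likelihood test their adjusted p-values were 0.175 to 0.227.

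The level of CD74 stood well apart from that of the chains it accompanies. Per kilobase of transcript, CD74 had 128 CPM in the unstimulated and 153 in the IFNγ group, and HLA-DMA had 3.00 and 3.60. HLA-DRA had 0.175 and 0.371, and CIITA had 0.0464 and 0.0885. The value of CIITA rests on an annotated transcript of 16061 bases. Without division by length, the mean level of CIITA was above that of HLA-DRA, at 0.746 and 1.42 CPM against 0.216 and 0.458 CPM. The summed level of the leukocyte marker list was higher in both IFNγ libraries, as was CD74, with CD14 and CSF1R higher in both and LYZ overlapping. The part of these markers in the difference of CD74 was not tested. With the trend of GC content and length removed from each library, a loess fit over all genes brought the log2 fold change of CD74 to 0.03, with an adjusted p of 0.878 by edgeR's quasi-likelihood test.

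HLA-DM, the alpha-beta pair that exchanges the invariant chain fragment for antigenic peptide, is encoded by HLA-DMA and HLA-DMB. HLA-DMA (ENSG00000204257, chromosome 6, 32916390 to 32936871, minus strand) had 40 and 19 counts unstimulated and 43 and 27 with IFNγ, or 3.89 and 2.66 CPM against 4.18 and 3.68 CPM. The groups overlapped, and the log2 fold change was 0.25 ± 0.33 (SE), with a 95% interval of -0.52 to 1.01 and an adjusted p of 0.634 by edgeR's quasi-likelihood test. HLA-DMB (ENSG00000242574, chromosome 6, 32902406 to 32908805, minus strand) had 1 and 0 counts unstimulated and 0 and 1 with IFNγ. The alpha chain of this pair was thus counted 129 times over the 4 libraries and the beta chain 2 times. HLA-DMB overlaps 2 annotated genes on the same strand, AL645941.1 and ENSG00000248993, and the latter also overlaps HLA-DMA. How the counting treated reads of these overlaps is not given, and their part in the contrast of 129 and 2 was not tested. HLA-DMA overlaps BRD2, a chromatin reader on the opposite strand with 1631 to 2794 counts per library. The strand setting of the counting is not known, so reads of the overlap cannot be told apart.

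The DNA-bound RFX subunits were all detected before stimulation, and RFX5 was the one that passed the test on the adjusted p. RFX5 (ENSG00000143390, chromosome 1, 151313116 to 151319802, minus strand), the subunit with the DNA-binding domain, had 331 and 255 counts unstimulated and 232 and 162 with IFNγ. This was 32.2 and 35.7 CPM against 22.6 and 22.1 CPM, so that both IFNγ libraries lay clearly below both unstimulated ones. The means were 34.0 ± 2.47 and 22.3 ± 0.327 CPM (SD, n = 2 each). RFX5 was lower after IFNγ, with a log2 fold change of -0.60 ± 0.14 (SE), a 95% interval of -0.94 to -0.26 and an adjusted p of 0.0269 by edgeR's quasi-likelihood test. The fitted fold was 0.659, short of the criterion on size.

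The difference in RFX5 kept its direction in all 13 alternatives, from -0.68 to -0.51, and its adjusted p was under 0.05 in 9 of them. It was 0.0526 with DESeq2. With edgeR it was 0.0613 without unstimulated replicate 1, 0.108 without unstimulated replicate 2 and 0.0506 without IFNγ replicate 1. With the trend of GC content and length removed, the log2 fold change was -0.67, with an adjusted p of 0.0182 by edgeR's quasi-likelihood test. In that fit 6.23% of all genes were lower and 9.53% higher, and no member was higher. RFX5-AS1 on the opposite strand had 0 and 0 counts before and 1 and 1 after IFNγ.

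RFXAP (ENSG00000133111, chromosome 13, 37393359 to 37403241, plus strand), the RFX-associated protein that completes the complex, had 61 and 34 counts unstimulated and 35 and 31 with IFNγ. This was 5.94 and 4.76 CPM against 3.4 and 4.23 CPM, without overlap but with a narrow gap. The log2 fold change of -0.51 ± 0.30 (SE) did not pass the test (95% interval -1.20 to 0.19, adjusted p = 0.267 by edgeR's quasi-likelihood test).

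RFXANK (ENSG00000064490, chromosome 19, 19303038 to 19312678, plus strand), the ankyrin-repeat subunit that contacts CIITA, had 230 and 143 counts unstimulated and 298 and 204 with IFNγ. This was 22.4 and 20.0 CPM against 29.0 and 27.8 CPM, again without overlap, but in the direction opposite to the other subunits. The log2 fold change was 0.42 ± 0.15 (SE), with a 95% interval of 0.07 to 0.77 and an unadjusted p of 0.025 by edgeR's quasi-likelihood test. Adjusted over all tested genes, p was 0.0893. With the trend of GC content and length removed, the log2 fold change was 0.19, with an adjusted p of 0.4 by edgeR's quasi-likelihood test. BORCS8 and NR2C2AP overlap RFXANK on the opposite strand, with 41 to 115 and 60 to 80 counts per library.

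Within each library, the ratio of RFXANK to RFX5 counts was 0.695 and 0.561 in the unstimulated and 1.28 and 1.26 in the IFNγ libraries. These ratios could not overlap, because RFXANK was higher and RFX5 lower in both IFNγ libraries. The ratios of RFXAP to RFX5 overlapped, at 0.184 and 0.133 against 0.151 and 0.191. Per kilobase of transcript, RFXANK had 15.4 CPM and RFX5 9.52 CPM unstimulated, and 20.6 and 6.26 CPM with IFNγ, while RFXAP was the lowest of the complex in both groups, at 2.32 and 1.66 CPM.

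**Figure D2:**
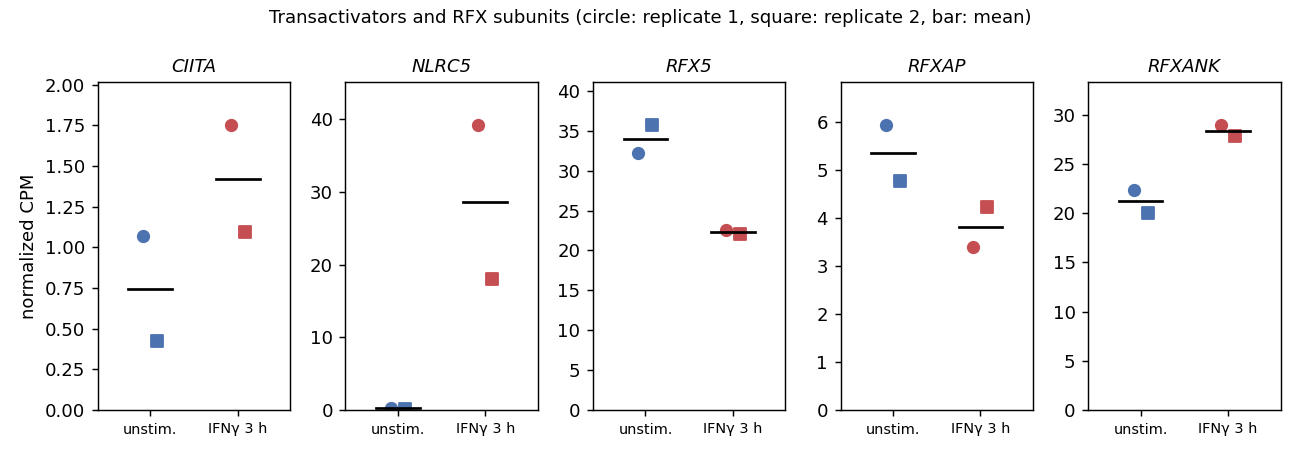
Levels in CPM of the transactivators CIITA and NLRC5 and of the RFX subunits, with a circle for replicate 1, a square for replicate 2 and a bar for the group mean. Both IFNγ libraries lie below both unstimulated ones for RFX5 and RFXAP and above them for RFXANK, CIITA and NLRC5, the last at 39.2 and 18.0 CPM after 0.292 and 0.14 CPM.

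The 5 tested members differed in base composition, and log2 fold changes rose with GC content over 14518 tested genes (Spearman's rho = 0.436 across genes, which share the 4 libraries). GC content was 60.5% in RFXANK, 57.8% in CD74, 53.1% in HLA-DMA, 49.3% in RFX5 and 44.3% in RFXAP. Genes with 58 to 63% GC had a median log2 fold change of 0.20, against 0.42 for RFXANK. Those with 56 to 60% also had one of 0.20, against 0.25 for CD74. At 47 to 51% GC the median was 0.06, against -0.60 for RFX5, and at 42 to 46% it was -0.13, against -0.51 for RFXAP. The part of GC content in the values of CD74 and RFXANK was not tested beyond removal of the trend.

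**Figure D3:**
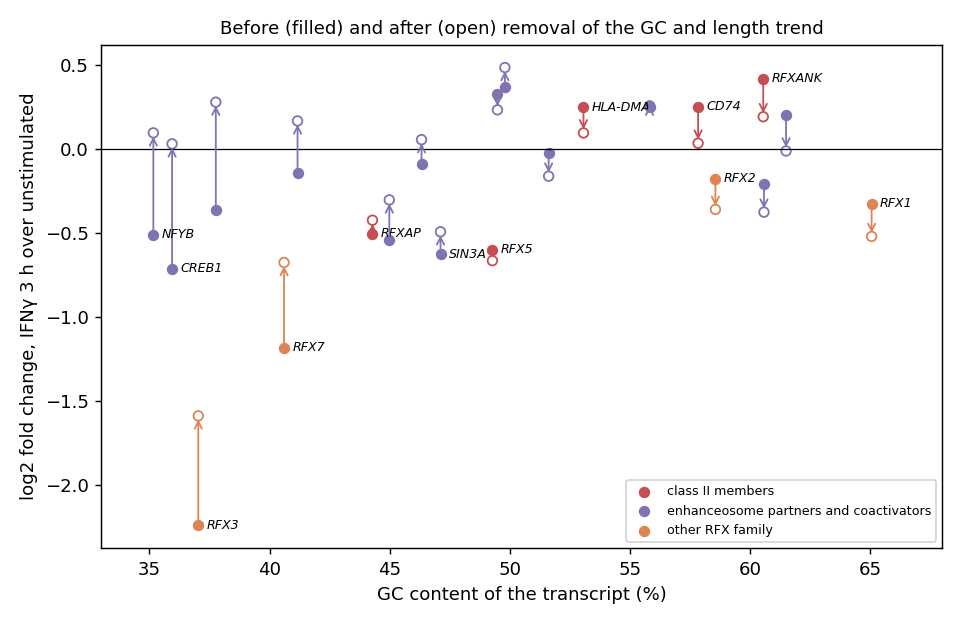
Log2 fold change (IFNγ over unstimulated) against GC content of the transcript in percent, for the tested class II members, the partners and coactivators and the other RFX genes. Arrows lead from the value before (filled) to that after (open) removal of the GC and length trend: CD74 moves to 0.03, RFXANK to 0.19, RFX5 from -0.60 to -0.67, and CREB1 from -0.71 to 0.03.

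Further genes of the pathway were described from 5 lists, which hold other class II chains, peptide loading, partners of CIITA, IFNγ signaling and the class I counterpart. Of these 58 genes, 55 had a row and 46 were tested. By edgeR's quasi-likelihood test 5 were called higher and 0 lower, against 2.88% and 4.40% of all tested genes. DESeq2 called 5 higher and 0 lower. At an unadjusted p under 0.05, edgeR gave 16 higher and 8 lower, against 16.6% and 18.8% of all tested genes. The called genes included IRF1, NLRC5, HLA-E and TAP1, none of which belongs to class II presentation itself.

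Of the steps from the IFNγ receptor to CIITA, all 10 genes listed were tested. Of these, 2 were called higher, against 2.88% of all tested genes. IRF1, a transcription factor of the CIITA promoter, rose from 19.3 and 20.2 CPM to 1201 and 1085 CPM, a log2 fold change of 5.86 with an adjusted p of 7.43e-06 by edgeR's quasi-likelihood test. With the adjusted p alone, the ligand-binding receptor chain IFNGR1 (0.78, adjusted p = 0.00938 by edgeR) and PRDM1, a repressor of CIITA in plasma cells (0.71, adjusted p = 0.0317 by edgeR), were higher. The receptor chain IFNGR2 was lower (-0.51, adjusted p = 0.0398 by edgeR). Adjusted p rose to 0.176 for IFNGR2 without unstimulated replicate 2 and 0.112 without IFNγ replicate 1. For PRDM1 edgeR gave 0.0684 without unstimulated replicate 1, 0.0504 without unstimulated replicate 2 and 0.123 without IFNγ replicate 1. USF1, another factor of the IFNγ-responsive CIITA promoter, had a log2 fold change of 0.50, with an adjusted p of 0.0524 by edgeR's quasi-likelihood test. SOCS1, a feedback inhibitor encoded near CIITA on chromosome 16, had 1 and 4 counts before and 14 and 12 after IFNγ, a ratio of summed counts of 5.14 with an interval of 1.94 to 17.1. With a log2 fold change of 2.29, its adjusted p was 0.0597 by edgeR's quasi-likelihood test. It was 3.77 (adjusted p = 0.0427 by edgeR) without unstimulated replicate 2 and 1.38 (0.359) without unstimulated replicate 1, and with no filter on low counts the adjusted p was 0.0117. After removal of the trend of GC content and length, IFNGR1 (1.09) passed the size criterion and the kinase JAK1 had 0.45 with an adjusted p of 0.0293 by edgeR. Over this list the median was 0.61.

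The transactivator of MHC class I, NLRC5, is a relative of CIITA that also works through the RFX complex. It had 3 and 1 counts unstimulated and 403 and 132 with IFNγ, a ratio of summed counts of 132 with an interval of 51.3 to 487. NLRC5 was called higher, with an adjusted p of 0.00122 by edgeR's quasi-likelihood test. Reads of both transactivators were thus scarce at 0 h, with 4 for NLRC5 and 14 for CIITA over the 2 libraries, and at 3 h they were 535 and 26. Within a library, the ratio of NLRC5 to CIITA counts was 0.273 and 0.333 unstimulated and 22.4 and 16.5 with IFNγ. Whether the responses of NLRC5 and CIITA differ was not tested.

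Of the 11 genes of the class I list, all tested, 3 were called higher, NLRC5 among them, and 0 lower. At an unadjusted p under 0.05, edgeR gave 6 of the 11 higher and 0 lower. Over all tested genes, 2.88% were called higher, and 16.6% were higher at an unadjusted p under 0.05 by edgeR. TAP1, a subunit of the peptide transporter, rose by 5.36 on the log2 scale (adjusted p = 5.87e-05 by edgeR) and HLA-E, a non-classical heavy chain, by 1.84 (adjusted p = 0.000331 by edgeR). TAP2, the other subunit, passed on the adjusted p alone (0.95, adjusted p = 0.0404 by edgeR). It did not pass with scaling by library size only (adjusted p = 0.057 by edgeR). Nor did it pass without unstimulated replicate 1 or IFNγ replicate 1. The classical heavy chains HLA-B and HLA-C differed by 0.34 and 0.24 on the log2 scale, with adjusted p-values of 0.071 and 0.184 by edgeR's quasi-likelihood test. The value of CD74, 0.25, lies between them. The list had a median of 0.34.

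**Figure D4:**
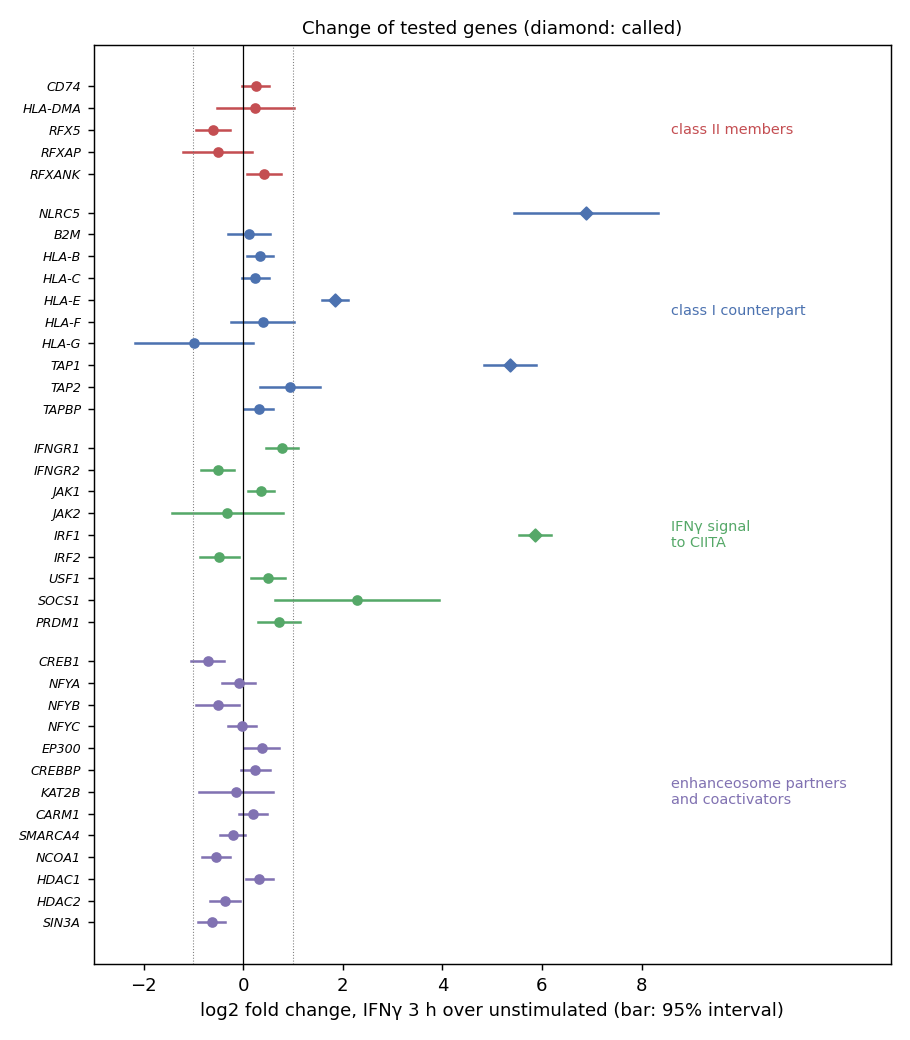
Log2 fold change (IFNγ over unstimulated) of the tested class II members and of class I genes, IFNγ signaling genes and promoter partners, not all of which are drawn, with bars for the 95% interval, diamonds for called genes and dotted lines at the size criterion. The class II members lie between -0.60 and 0.42, and the genes beyond 5 are IRF1, TAP1 and NLRC5, whose fitted value depends on the prior count because its unstimulated libraries held 4 counts.

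Of the 14 genes of class II peptide loading and turnover listed, 12 were tested. By edgeR or DESeq2, 0 were called higher and 0 lower, where edgeR called 2.88% and 4.40% of all tested genes. At an unadjusted p under 0.05, edgeR gave 16.6% of all tested genes as higher and 18.8% as lower. On this list it gave 1 gene higher, CTSB, and 1 lower, CTSV. Both encode endosomal cysteine proteases, and the log2 fold changes ranged from -0.44 (CTSV) to 0.26 (CTSB), with a median of 0.16. CTSS, the cathepsin that trims the invariant chain, was at 21.8 and 27.0 CPM unstimulated and 29.2 and 25.4 CPM with IFNγ, with overlapping groups. After removal of the trend of GC content and length, CTSS had a log2 fold change of 0.54 and SPPL2A, which degrades the invariant chain remnant, 0.54, with adjusted p-values of 0.0447 and 0.0459 by edgeR's quasi-likelihood test. IFI30, the IFNγ-inducible thiol reductase of endosomes, was near 0, with 1 and 0 counts before and 1 and 2 after. The list also holds MARCHF8, one of the ubiquitin ligases that remove class II molecules from the surface, at 0.16.

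All 13 partners and coactivators of the class II promoter complex were tested. By edgeR or DESeq2, 0 were called higher and 0 lower, where edgeR called 2.88% and 4.40% of all tested genes. At an unadjusted p under 0.05, edgeR gave 2 higher and 5 lower, against 16.6% and 18.8% of all tested genes. With the adjusted p alone, 3 were lower and 0 higher, against 11.0% and 9.02% of all tested genes, and the median was -0.15. CREB1, which binds within the X box, was at 52.6 and 53.7 CPM unstimulated and 29.7 and 35.2 CPM with IFNγ (log2 fold change -0.71, adjusted p = 0.0139 by edgeR's quasi-likelihood test). With the trend of GC content and length removed, its value was 0.03, and the coactivator EP300 went from 0.37 to 0.48 (adjusted p = 0.0256 by edgeR). The corepressor SIN3A had -0.63 (adjusted p = 0.0101 by edgeR) and the coactivator NCOA1 -0.55 (adjusted p = 0.019 by edgeR, and 0.0893 without unstimulated replicate 1 or 0.0962 with the trend removed). The NF-Y subunits, which bind the Y box, did not pass: NFYA had -0.09, NFYB -0.51 with an adjusted p of 0.0913 by edgeR, and NFYC -0.02, and all 3 turned positive under at least 1 alternative.

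Among the other members of the RFX family, which share the DNA-binding domain of RFX5 but not its part in class II expression, 4 of 7 were tested. All 4 had negative log2 fold changes, with a median of -0.76, and 2 were called lower, against 4.40% of all tested genes. RFX3, a factor of ciliated and endocrine cells, fell from 14.0 and 10.6 CPM to 2.63 and 2.59 CPM (log2 fold change -2.24, adjusted p = 0.00269 by edgeR's quasi-likelihood test, and -1.59 with the trend of GC content and length removed). RFX7 fell from 48.9 and 42 CPM to 25.3 and 14.3 CPM (-1.18, adjusted p = 0.0174 by edgeR). That call was lost with the trend of GC content and length removed (-0.68), without unstimulated replicate 1 (adjusted p = 0.0516 by edgeR) and without IFNγ replicate 2 (-0.87). RFX5, at -0.60, lay between these and RFX1 (-0.33) and RFX2 (-0.18).

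Ligands that act beside class II molecules in T cell activation were also read. CD80 had 0 counts in every library, CD86 had 2 and 2 counts before and 1 and 3 after IFNγ, and CD40 had 1 and 2 before and 0 and 0 after. Of 8 ligands listed, 4 were tested. ICOSLG, the ligand of ICOS, rose from 47.6 and 48.2 to 105 and 116 CPM (log2 fold change 1.20, adjusted p = 0.00161 by edgeR's quasi-likelihood test). CD274, the inhibitory ligand PD-L1, rose from 2 and 1 to 16 and 10 counts, a ratio of 8.57 with an interval of 2.63 to 44.2 (adjusted p = 0.0158 by edgeR). That call was lost without unstimulated replicate 1, unstimulated replicate 2 or IFNγ replicate 2, with adjusted p-values of 0.0604 to 0.116 by edgeR. TNFSF4, the OX40 ligand, fell by 1.04 on the log2 scale (adjusted p = 0.0186 by edgeR). That call was lost without unstimulated replicate 2 (-0.95) or without IFNγ replicate 1 (-0.87). It was also lost with upper quartile scaling (-0.9999) or with the trend of GC content and length removed (-0.70).

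The enterocyte list of 14 genes held 2 called genes, against 7.28% of all tested genes called in either direction. CDX2, an intestinal transcription factor, rose by 1.20 (adjusted p = 0.00117 by edgeR's quasi-likelihood test), and SI, sucrase-isomaltase, fell by 1.13 (adjusted p = 0.0256 by edgeR). The call of SI was lost with DESeq2 (adjusted p = 0.0546), without IFNγ replicate 2 (-0.75) and with the trend of GC content and length removed (-0.63), and CDX2 then fell just short of the size criterion, at 0.9955. With the adjusted p alone, KRT8 (0.84), KRT18 (0.88) and ALPI (0.45) were higher and KRT19 (-0.50) lower. KRT19 and ALPI no longer passed without unstimulated replicate 1 (adjusted p = 0.0566 and 0.162 by edgeR) or IFNγ replicate 1 (0.0975 and 0.0596), nor KRT19 without unstimulated replicate 2 (0.088) or ALPI without IFNγ replicate 2 (0.0905) or with the trend removed (0.209). None of the 3 tested leukocyte markers was called by edgeR or DESeq2, where edgeR called 7.28% of all tested genes in either direction. At an unadjusted p under 0.05, edgeR gave 1 of them higher, CD14, against 16.6% of all tested genes.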

How the data were processed

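The authors deposited unnormalized read counts for each Ensembl gene in each of the 4 libraries. Per the labels, RNA was isolated with mirVana and libraries were made with TruSeq. The submitters' processing notes name HISAT 0.5.1 and HTSeq 0.6.1p1, and the strand setting and genome build are not given in the sources used here. Symbols, coordinates, GC content and length came from a GENCODE annotation mapped to GRCh37, and matched 96.5% of identifiers.

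Counts were analyzed with edgeR 4.0.16 in R 4.3.3: default filter on low counts, TMM scaling, quasi-likelihood test, Benjamini-Hochberg adjustment. CPM values use TMM-scaled library sizes. Counting intervals are exact at 95% and cover counting error only. The main test, the replicate block, the trend removal and DESeq2 1.42.0 were each tested on simulated data. The other alternatives were not. CIITA did not pass the filter, so it has no value in the main fit and no nearest genes. Alternatives were other scalings, filters and thresholds, DESeq2, a replicate block, a loess removal of the GC content and length trend, and each library left out in turn. Named were all members, list genes that were called or had an adjusted p under 0.05, and the 5 genes nearest to CD74. Some genes that this rule covers are not reported here. Others were named after their values were seen, for their role. The members and lists were chosen with earlier results of these data known.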

Additional observations from a re-analysis of the deposited data

How the results depend on the processing

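No member was called under any scaling, filter or left-out library, or with DESeq2. Without a criterion on size, 1 member was lower, and 8 pathway genes were higher and 4 lower. Of all tested genes, 9.02% were higher and 11.0% lower. With the trend of GC content and length removed as well, 1 member was lower, and 12 pathway genes were higher and 2 lower. That combination was added after seeing the data. In it, 9.53% of all genes were higher and 6.23% lower. Same-numbered libraries deviated together across genes (r = 0.408). The labels do not say whether a shared replicate number marks a shared batch, and there were only 2 pairs. With the replicate block and no criterion on size, also added after seeing the data, 2 members were higher and 1 lower, and 19 pathway genes were higher and 8 lower. In that block fit the adjusted p-values by edgeR were 0.0241 for CD74, 0.0373 for RFXANK, 0.00924 for RFX5 and 0.027 for SOCS1, where 17.5% of all genes were higher and 19.5% lower. With the trend removed, without and with the block, values that turned positive were 0.029 and 0.0082 for CREB1, 0.055 and 0.053 for NFYA, and 0.095 and 0.10 for NFYB. The cause was not tested. NFYC turned positive with upper quartile scaling (0.019), and ranged from -0.0775 to 0.0162 with a library left out. B2M ranged from -0.0867 to 0.365. A lone library left in a group is assumed to vary like the others. CIITA could be fitted only where the filter let it pass. Precision is limited by 2 libraries per group and, for the class II chains, by depth.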
